A study of Mus musculus with 139 samples.

Results

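Skeletal muscle was compared with 9 other organs in a small RNA atlas of the mouse. The 14 muscle libraries were chosen by their column names, out of 139 samples in the series, and were set against 116 libraries of brain (14), heart (13), lung (13), liver (13), kidney (14), pancreas (11), intestine (12), spleen (14) and bone marrow (12). All groups were wild-type C57BL/6J mice, an inbred laboratory strain, 3 months old and adult, with no treatment named in the labels. Each of 14 animals gave 1 muscle library, and the labels do not say which muscle was taken. Column names mark animals 1 to 10 as female and 11 to 14 as male. The descriptions name library pools: N469 held muscle, brain, heart, intestine and bone marrow of animals 1 to 10, N467 held their liver, spleen, kidney, pancreas and lung, and N541 held all organs of animals 11 to 14. The comparison asks which small RNA genes had more or fewer counts in muscle than in other organs, and which of these differences were also seen inside pool N469.

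MicroRNAs are short RNAs that bind messenger RNAs through their seed, bases 2 to 8 counted from the 5′ end, and lower the output of their targets. Skeletal and heart muscle share a set of them, often called myomiRs. The miR-1 and miR-133 genes lie next to each other as pairs and are transcribed together; miR-1 is known to promote the differentiation of muscle cells and miR-133 to act on their growth. miR-206 is a skeletal muscle relative of miR-1 that is tied to regeneration and to the nerve-muscle junction. The genes of miR-208a, miR-208b and miR-499 lie inside genes of myosin heavy chains, the motor proteins of the contractile apparatus.

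The mature sequences of the miRNAs on which the results turn are shown with the seed in capitals, from RefSeq on the build GRCm38.p6. miR-206 and miR-133b come from a single muscle locus, miR-208b and miR-499 from myosin genes, and miR-10b, miR-10a and miR-196a from Hox clusters. miR-193b, miR-483 and both arms of miR-3061 come from genes that were higher in muscle than in every other organ, and miR-22 from a gene among the most abundant in muscle.
mmu-miR-206-3p: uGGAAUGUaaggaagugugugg
mmu-miR-133b-3p: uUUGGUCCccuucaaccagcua
mmu-miR-208b-3p: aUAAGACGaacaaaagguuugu
mmu-miR-499-5p: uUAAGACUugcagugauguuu
mmu-miR-10b-5p: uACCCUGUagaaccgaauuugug
mmu-miR-10a-5p: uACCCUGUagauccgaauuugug
mmu-miR-196a-5p: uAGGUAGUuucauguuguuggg
mmu-miR-193b-3p: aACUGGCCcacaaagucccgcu
mmu-miR-483-3p: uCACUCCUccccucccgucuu
mmu-miR-3061-5p: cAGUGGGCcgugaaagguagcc
mmu-miR-3061-3p: cUACCUUUgauaguccacugcc
mmu-miR-22-3p: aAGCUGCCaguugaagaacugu
miR-10a and miR-10b share a seed, while miR-208b and miR-499 do not have the same 7 seed letters. Counts were made per gene, so the arms of a hairpin are not separated. Mir1a-1 and Mir1a-2 had nearly equal counts, as did Mir133a-1 and Mir133a-2, and the members of each pair cannot be separated. Other copies, such as Mir196a-1 and Mir196a-2, had different counts, and how reads that match several genes were counted is not given in the sources used here.

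Levels are raw CPM (a gene's count per 1000000 counts of its library, with no other scaling), as mean ± SD over libraries. Muscle libraries held 2469371 to 27644673 counts with a median of 7436942, so that a gene with no count in a library lies below 0.109 to 1.21 CPM (3 counts). Pancreas libraries were far shallower, at 13795 to 964665 counts. The muscle libraries fell into 3 sets before any comparison: animals 1 to 5 (adapter index numbers 6 to 10), animals 6 to 10 (index numbers 30 to 34) and animals 11 to 14 (pool N541). Spearman correlations of muscle libraries over 452 genes had medians of 0.968, 0.973 and 0.931 within these sets, given as a description across genes. Between animals 1 to 5 and 6 to 10 the median was 0.878. Animals 11 to 14 had medians of 0.788 with animals 1 to 5 and 0.770 with animals 6 to 10. Muscle 2 and Muscle 13 also stood apart, with Mir10b taking 604919 and 315701 CPM there.

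Of 1063 genes tested, 250 were higher in muscle than in the mean of the 9 organs (23.5%) and 118 were lower (11.1%), at an adjusted p below 0.05 and a change of at least 1 on the log2 scale. The median of all tested genes was 0.05. The split depends on the scaling: it was 201 higher and 170 lower with DESeq2 size factors, with a median of all genes of -0.21, and 150 higher and 327 lower on unscaled library totals, with a median of -0.68. The median TMM factor, which scales each library's total, was 0.578 in muscle against 1.02 in the other libraries. Among miRNA genes 149 of 476 were higher and 88 lower. A single high organ is hidden in a mean, so each gene was also tested against every organ in turn. By that rule 7 genes were above each of the 9 organs (0.659%): Mir206, Mir133b, Mir483, Mir3061, Mir193b, n-TStga1 and Mir1191b.

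Among genes with at least 10 CPM in muscle, the 5 largest log2 differences belonged to the striated muscle miRNA genes Mir1a-1, Mir1a-2, Mir133a-1, Mir133a-2 and Mir206. Of 10 genes listed, 9 were tested and 8 were higher, where 23.5% of all genes tested were higher. The median log2 difference was 10.46, or 10.17 with organs that had no count set to 3 counts, against 0.05 over all genes tested. Their summed level ran from 69256 to 350062 CPM over muscle libraries. Its mean was 114475 CPM in heart and 4.62 CPM in liver. Bulk tissue cannot tell fewer cells of a type from less RNA per cell.

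Mir206 (chr1:20679010-20679082, an exon of the lincRNA gene Gm28653) had 115 CPM in the lowest muscle library, a median of 215 and 722 in the highest, a mean of 269.7 ± 186 (n = 14). Brain was the next organ, at 28.6 ± 43.4 CPM (n = 14) with a median of 1.44 and a highest library of 136. Heart had 8.36 ± 5.66 CPM (n = 13), and liver had no count in 13 libraries. A single library of the other organs, Brain 4, reached the lowest muscle library. The log2 difference to the 9 organs was 10.46 ± 0.64 (SE, adjusted p = 6.38e-30), or 10.17 with liver set to 3 counts, and it was 4.02 over brain alone (adjusted p = 1.15e-06 for muscle above each organ). Mir206 kept that call in 14 of 14 leave-one-out fits and in 14 of 14 other alternatives, with a smallest difference of 3.15 to 5.12. The high brain values came from animals 1 to 5, with a median of 68.3 CPM against 0.536 CPM in animals 6 to 10 and 0.857 CPM in animals 11 to 14.

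Mir133b lies in the same lincRNA (chr1:20682769-20682887) and is a near relative of the miR-133a genes. It had 188, 803 and 1334 CPM in the lowest, median and highest muscle library, against 145, 221 and 308 in heart. The 2 ranges overlap, and 10 libraries of other organs lay at or above the lowest muscle library, Muscle 13. The log2 difference was 9.03 ± 0.47 (adjusted p = 1.02e-35), or 8.85 with the empty organ set to 3 counts, and 1.87 over heart (adjusted p = 0.0196 for muscle above each organ). This last call was lost in 5 alternatives.

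Mir1a-1 (chr2:180389048-180389124) took 4.71 ± 3.92% of muscle counts. Its lowest library had 2800.5 CPM (Muscle 7), the median was 51120.3 and the highest was 97548 (Muscle 5); heart ran from 1493 over a median of 27408 to 41296 CPM. Over all animals muscle and heart overlapped over most of their range, and the muscle mean exceeded heart by 1.48 on the log2 scale (adjusted p = 0.488 for muscle above each organ). Within animals 1 to 5 muscle had 18750 to 97548 CPM and heart 22545 to 41296, ranges that overlap. Within animals 6 to 10 muscle had 2800.5 to 5162 CPM and heart 1493 to 2579. Within animals 11 to 14 they had 45979 to 88380 and 28681 to 38971, with no overlap in either of these later sets. Mir1a-1 was called above each organ without the muscle of animals 6 to 10 and with the pools split by index number. Against the 9 organs together the difference was 10.88 ± 0.59 (adjusted p = 4.12e-36). It was 9.63 without the muscle of animals 1 to 5 and 11.40 without that of animals 6 to 10. Both fits kept all libraries of the other organs.

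Mir133a-2 (chr2:180398379-180398482), the partner of Mir1a-1 in its cluster, took 6.46 ± 2.25% of muscle counts. It had 12528, 73377 and 85518 CPM in the lowest, median and highest muscle library and 15093, 30726 and 74976 in heart. Here too the ranges overlapped: 13 libraries of other organs reached the lowest muscle library, Muscle 13. The log2 difference was 10.52 ± 0.46 (adjusted p = 4.47e-45) against the 9 organs and 1.23 over heart (adjusted p = 0.387 for muscle above each organ).

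The miRNAs inside myosin genes did not follow a single pattern. Mir208a, in an intron of the heart myosin gene Myh6 (chr14:54949060-54949142, minus strand), had 934 ± 210.3 CPM in heart (n = 13). It had 18 counts in all in the muscle libraries, 0.200 ± 0.368 CPM (n = 14), and its difference to the 9 organs did not pass the test (-1.10 ± 1.30, adjusted p = 0.542).

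Mir208b, in an intron of Myh7 (chr14:54975700-54975776, minus strand), the myosin of slow muscle fibres, had 0.470, 59.7 and 289 CPM in the lowest, median and highest muscle library. Heart had 48.9, 88.3 and 150.1 CPM. Muscle was both above and below heart depending on the animal, with all 4 libraries of animals 11 to 14 at 0.470 to 22.3 CPM. Mir208b was 6.71 ± 0.59 above the 9 organs on the log2 scale (adjusted p = 1.06e-19) and differed from heart by -0.22 (adjusted p = 0.777).

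Mir499, in an intron of Myh7b (chr2:155622880-155622958), had 0.687, 6.55 and 36.4 CPM in muscle and 282, 779 and 1241 CPM in heart. No muscle library reached a heart library. Mir499 was higher in muscle than in the organ mean (3.71 ± 0.39, adjusted p = 1.53e-15) and lower than in heart by 5.88 on the log2 scale, with an adjusted p of 3.35e-21.

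**Figure D1:**
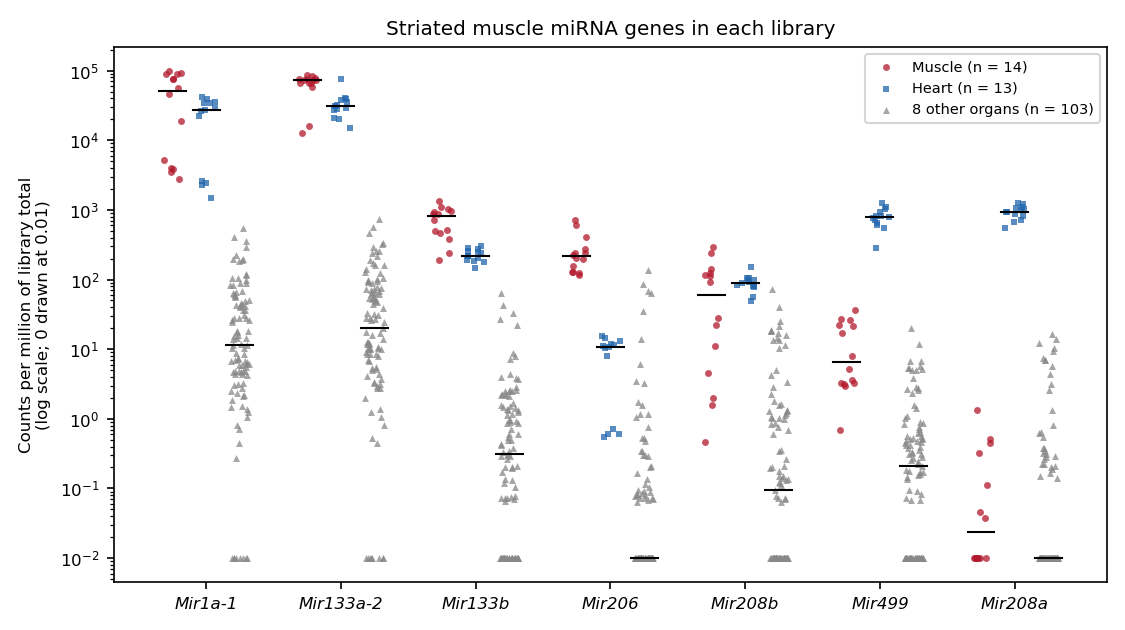
Raw CPM on a log axis of 7 striated muscle miRNA genes in each muscle library (14), heart library (13) and library of the other 8 organs (103); bars mark medians, and a library with no count is drawn at 0.01. Mir206 in muscle lies at 115 to 722 CPM, above every heart library, while Mir208a and Mir499 in muscle lie below every heart library.

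Besides Mir206 and Mir133b, 5 genes were above each of the 9 organs. Mir193b (chr16:13449523-13449601), known for roles in brown fat and muscle differentiation, had 23.9, 176 and 275 CPM in the lowest, median and highest muscle library. Brain followed with a mean of 106 ± 76.0 and a highest library of 321 CPM, so single libraries overlapped widely and 44 of 116 reached the lowest muscle library. Mir193b was 3.82 ± 0.25 above the 9 organs on the log2 scale (adjusted p = 1.22e-29) and 1.95 above brain. Its lowest muscle library was Muscle 13.

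Mir3061, in an exon of Ppp2ca (chr11:52126746-52126836), the gene of a protein phosphatase 2A catalytic subunit, had 7.47, 18.4 and 25.7 CPM in muscle. Brain reached 23.9 CPM with a mean of 11.0 ± 6.75. The log2 difference was 4.28 ± 0.27 over the 9 organs (adjusted p = 7.74e-30), or 3.78 with an empty organ set to 3 counts, and 2.08 over brain. Antisense or overlapping reads of Ppp2ca cannot be told apart from those of Mir3061 where strand was not used.

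Mir483, in an intron of the growth factor gene Igf2 (chr7:142654924-142654996, minus strand), was low everywhere, at 1.41, 4.73 and 14.3 CPM in muscle. Brain had a mean of 2.21 ± 2.07 and a highest library of 7.96 CPM. The log2 difference was 6.06 ± 0.39 over the 9 organs (adjusted p = 2.10e-27), or 5.14 with 2 empty organs set to 3 counts, and 2.60 over brain (adjusted p = 0.00595 for muscle above each organ).

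The call above each organ was lost in 2 of 14 alternatives for Mir193b, 2 for Mir3061 and 5 for Mir483, leaving out of single libraries aside. The other calls, of n-TStga1 and Mir1191b, ended in most fits that left out 1 muscle library. n-TStga1 (chr13:23518142-23518250), by its name a nuclear serine tRNA gene though the table classes it as miRNA, ran from 0.560 to 58.4 CPM in muscle, and 104 of 116 other libraries reached its lowest muscle library. It kept the call above each organ in 3 of 14 leave-one-out fits: the call ended without Muscle 1, 3, 4, 5, 6, 8, 9, 10, 11, 12 or 14. Mir1191b, in an intron of Nfic (chr10:81416240-81416297, minus strand), had 3.79 ± 2.08 CPM in muscle and 2.21 ± 1.19 in heart, and kept the call in 0 of 14 leave-one-out fits.

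Mir1963 was separated from every other library without being called above each organ. It lies in an intron of Ryr1 (chr7:29083636-29083694, minus strand), the gene of the calcium release channel of skeletal muscle. It had 8.41, 12.0 and 23.8 CPM in the lowest, median and highest muscle library. The highest library of any other organ had 2.57 CPM, in brain, and 5 organs had no count. With these set to 3 counts each, the log2 difference was 8.62. The largest of the 9 one-sided tests, against the shallow pancreas, gave an adjusted p of 0.834.

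**Figure D2:**
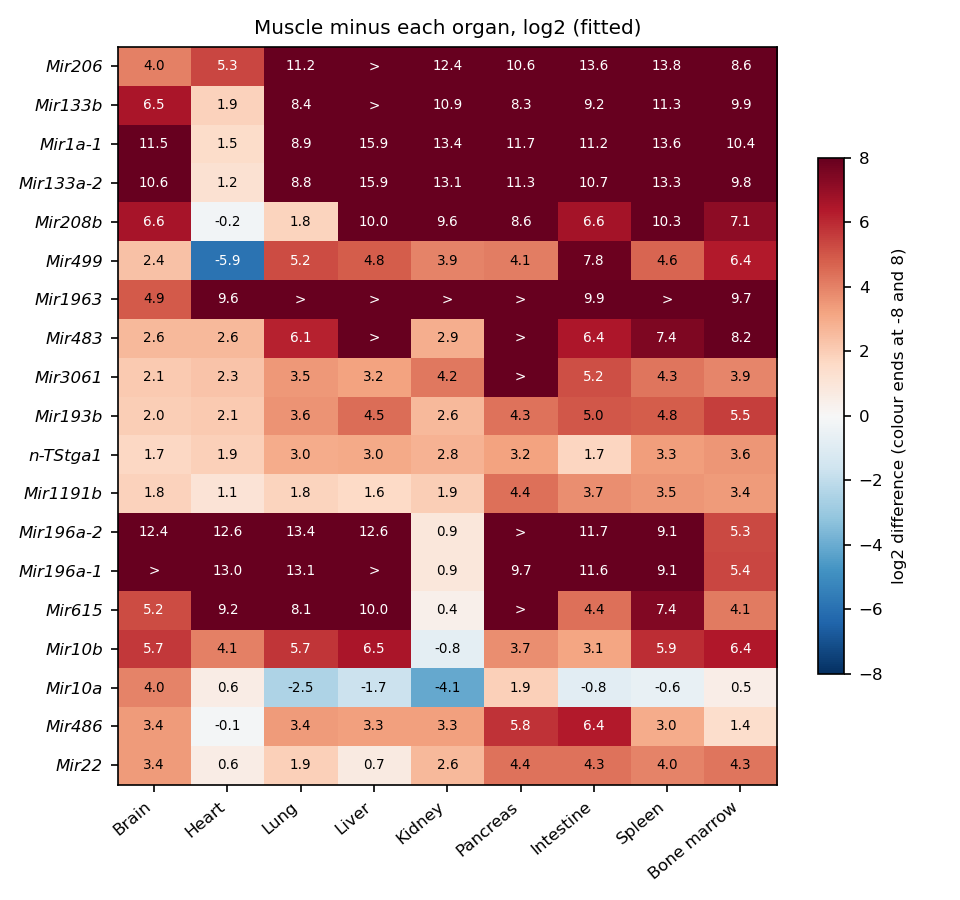
Fitted log2 difference of muscle minus each of the 9 organs (columns) for 19 genes (rows); a > marks an organ with no count in any library, where the fitted value depends on the prior count. Mir206 is above every organ, with 4.02 over brain, whereas Mir10b is 0.79 below kidney.

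MicroRNAs that lie in Hox clusters, gene groups that carry position along the body axis, were high in muscle. Of 6 listed genes 5 were higher, where 23.5% of all genes tested were higher. The median log2 difference was 6.73, or 6.28 with empty organs set to 3 counts, against 0.05 over all genes. For the miR-196a and Mir615 genes the next organ was kidney, and none of the 6 was called above each of the 9 organs.

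Mir196a-2, in an intron of Hoxc5 (chr15:102973350-102973434), had 193, 263 and 396 CPM in the lowest, median and highest muscle library and 70.6, 95.1 and 189 in kidney. No library of any other organ reached the lowest muscle library. The log2 difference was 10.24 ± 0.29 (adjusted p = 7.19e-62), or 9.70 with the empty organ at 3 counts, and after scaling it was 0.88 over kidney (adjusted p = 0.0906). Its partner copy Mir196a-1 (chr11:96265164-96265265) had 100.5, 144 and 207 CPM in muscle, with 99.5 CPM in the highest kidney library. Mir615, in another intron of Hoxc5 (chr15:103014910-103015001), had 30.7 ± 13.3 CPM in muscle and 21.6 ± 7.96 in kidney, and differed from kidney by 0.40 (adjusted p = 0.627).

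Mir10b, in an intron of Hoxd3 and Hoxd4 (chr2:74726070-74726137), was the most abundant gene in muscle by its mean, 16.65 ± 14.4% of counts. Its lowest library had 53413 CPM (Muscle 12), the median was 119590.1 and the highest was 604919 (Muscle 2). Kidney held more, at 250266 to 394419 CPM. Mir10b was 4.48 ± 0.38 above the 9 organs on the log2 scale (adjusted p = 6.66e-21) and -0.79 against kidney (adjusted p = 0.316). Its seed relative Mir10a (chr11:96317165-96317274) had 27627 ± 7908 CPM in muscle and 292181 ± 47954 in kidney, and did not pass the test against the 9 organs (-0.30 ± 0.33, adjusted p = 0.511).

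Mir486, in an intron of Ank1 (chr8:23142555-23142682), is known from both muscle and red cell precursors. It overlaps Mir3107 on the opposite strand, and the counts of both cannot be separated. It had 35593, 64364 and 137022 CPM in the lowest, median and highest muscle library, or 6.95 ± 2.54% of counts. Heart had 56018, 114006 and 149526 CPM and bone marrow a mean of 95882 ± 44028, so muscle overlapped both. The log2 difference was 3.31 ± 0.29 over the 9 organs (adjusted p = 7.42e-20) and -0.14 against heart (adjusted p = 0.805).

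Mir486 is also on the erythroid list of 3 genes, where 1 was higher and 2 were lower. Of all genes 23.5% were higher and 11.1% lower. The other erythroid genes, Mir451a and Mir144, moved the other way from Mir486. The cell source of the Mir486 counts was not tested. Mir451a, which red cell precursors carry at high levels, had 466 ± 362 CPM in muscle, 13079 ± 14191 in heart and 31936 ± 27235 in bone marrow, and was lower than the 9 organs by 2.54 ± 0.41 on the log2 scale (adjusted p = 3.70e-08). Mir144, its cluster partner, was lower as well (-2.01 ± 0.36, adjusted p = 7.50e-07). The counts of Mir486 divided by those of Mir451a gave a median ratio of 149 in muscle, from 59.8 to 954 in 13 libraries and 4283 in Muscle 13. The medians of the 9 other organs ran from 3.75 to 13.4, with single libraries of up to 468 in liver and 88.9 in brain.

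Mir22 lies in an exon of its host gene Mir22hg (chr11:75463716-75463810) and is known for its roles in heart and muscle growth. It had 4354, 24574 and 103888 CPM in the lowest, median and highest muscle library, and heart had 15380.1, 23215 and 89342. Both organs spread widely and overlapped. Mir22 was 2.91 ± 0.23 above the 9 organs (adjusted p = 8.67e-23) and 0.57 over heart (adjusted p = 0.130). Mir30a, at 42139.7 ± 16796 CPM, did not pass the test (0.54 ± 0.30, adjusted p = 0.152).

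The Dlk1-Dio3 cluster, a large imprinted group of miRNA genes on chromosome 12 that is expressed from the maternal copy, was higher in muscle as a group, below brain. Of 59 genes listed, 57 were in the table, 52 had a count in muscle and 46 passed the filter on low counts. All 46 tested were higher, where 23.5% of all genes tested were higher. The median log2 difference was 3.46 against 0.05 over all genes, and 40 to 50 were higher over the alternatives. For 11 of the 46 an organ had no count. With such organs set to 3 counts the median was also 3.46. The genes left out by the filter have no test. The cluster's summed level ran from 886 to 7909 CPM over muscle libraries, and its mean was 64708 CPM in brain and 46.5 CPM in kidney.

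Mir127, the most abundant of the cluster in muscle, had 424, 1412 and 3947 CPM in the lowest, median and highest muscle library. Brain had 16809 to 48299.6 CPM, and heart, the next organ, had 308 ± 168. Muscle lay wholly below brain and mostly above heart, with a log2 difference of 4.05 ± 0.27 to the 9 organs (adjusted p = 4.56e-28), 2.66 to heart and -3.07 to brain. Mir541, Mir136 and Mir411 had 434 ± 245, 328 ± 199 and 337 ± 414 CPM in muscle, and their log2 differences were 3.41, 4.61 and 4.33 to the 9 organs and -2.84, -2.12 and -1.56 to brain.

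MicroRNAs tied to muscle development, a list of 29 genes outside the striated set, did not move as a group. Of 28 tested, 9 were higher and 3 lower, with a median of 0.55, against 23.5% higher and 11.1% lower of all genes tested; on unscaled totals 4 were higher and 8 lower, with a median of -0.30, and without the muscle of animals 1 to 5 there were 5 and 7. Mir486 is one of the 9. Mir26a-1, known to promote muscle cell differentiation, had 5843, 19285 and 24215 CPM in the lowest, median and highest muscle library and was higher by 1.40 ± 0.29 (adjusted p = 1.43e-05), and differed from lung by -0.37 (adjusted p = 0.543). Its call ended on unscaled totals, at 0.57, and without the muscle of animals 1 to 5, at 0.88.

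Mir31, also on that list, was lower in muscle than in each of the 9 organs. It lies in an exon of AL805899.1 (chr4:88910557-88910662, minus strand) and is known as a repressor of the myogenic factor Myf5. It had 0, 0.647 and 3.79 CPM in the lowest, median and highest muscle library. Organ means ran from 6.86 ± 3.23 CPM in spleen to 709 ± 455 in intestine, with 30.9 ± 11.7 in heart. The muscle range overlapped those of spleen, bone marrow and the shallow pancreas and lay below every library of brain, heart, lung, liver, kidney and intestine. Mir31 was lower by 4.77 ± 0.36 on the log2 scale (adjusted p = 2.36e-24).

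Epithelial miRNAs were lower in muscle. Of 10 listed genes 9 were lower and 1 was higher, with a median log2 difference of -4.31. Among all genes tested 11.1% were lower and 23.5% higher, with a median of 0.05. Summed over the list, brain had the highest organ mean, at 64681 CPM, and heart the lowest, at 199 CPM. The miR-200 family, which holds cells in an epithelial state, gave 5 of the 10 most negative changes among genes of at least 10 CPM over the organs. Mir200a had 0, 0.647 and 8.89 CPM in the lowest, median and highest muscle library, against 4470.4 ± 3789 in pancreas, and was lower by 6.70 ± 0.62 (adjusted p = 2.16e-18). It was lower than 8 organs. Bone marrow had 4.51 ± 1.80 CPM, a log2 difference of -0.26 (adjusted p = 0.707). Mir141, Mir200b, Mir200c and Mir429 were lower by 6.54, 6.00, 5.40 and 5.06. In the miR-200 family the highest muscle library was Muscle 7.

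Of 4 pancreas markers tested 2 were lower and 2 neither, and of 4 intestine markers 3 were lower and 1 neither. Of all genes tested 11.1% were lower and 23.5% higher. The liver marker Mir122 was not called (-0.60 ± 0.62, adjusted p = 0.468). Mir375, a miRNA of pancreatic islets, had 0.345 ± 0.333 CPM in muscle and 44616 ± 20651 in pancreas, and was lower by 5.78 ± 0.47 (adjusted p = 6.94e-22). Mir802 had 0.111 ± 0.139 CPM in muscle and 2731 ± 2056 in pancreas. The acinar miRNA gene Mir216a had 1 count over all muscle libraries and 5201 ± 2833 CPM in pancreas, and the brain-enriched Mir344 had 3 counts in muscle and 199 ± 94.6 CPM in brain. Mir192, an intestine and liver miRNA, was present in each muscle library at 126 to 296 CPM but was lower by 3.15 ± 0.32 (adjusted p = 3.25e-16), with 129035 ± 41649.8 CPM in liver.

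The Mir17-92 cluster and its paralogues, miRNAs of dividing cells, were lower in 12 of 15 genes and higher in 0, with a median of -1.57, against 11.1% lower and 23.5% higher of all genes tested. Mir93 had 48.6, 194 and 309 CPM in the lowest, median and highest muscle library and 1188 to 3750.2 in spleen, and was lower by 1.32 ± 0.23 (adjusted p = 4.88e-07). Mir92-1, the most abundant member in muscle at 2104 ± 873 CPM, did not reach the size required (-0.62 ± 0.26, adjusted p = 0.0443). None of the 12 let-7 genes was called in either direction, with 7 lower on unscaled totals.

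A muscle sample also holds vessels, connective tissue, nerve and blood. The counts of their markers stand beside 23.5% higher and 11.1% lower of all genes tested. Of 4 stromal genes 3 were higher and 0 lower, with Mir199a-2 at 1234 ± 512 CPM and a log2 difference of 2.03 ± 0.24 (adjusted p = 3.69e-13). Its difference to heart was -0.31 (adjusted p = 0.437). Of 2 smooth muscle genes 1 was higher, Mir143, at 30447 ± 12231 CPM and 1.03 ± 0.19 (adjusted p = 1.14e-06), a call lost in 10 of 15 alternatives other than leaving out single libraries. The endothelial Mir126a had 4653 ± 3955 CPM and was not called (0.62 ± 0.27, adjusted p = 0.0560). Of 6 lymphoid genes 2 were higher and 1 lower; the lower one, Mir142, had 286 ± 136 CPM and fell by 1.75 on the log2 scale (adjusted p = 2.54e-06), and Mir181b-2 was among the higher (1.45 ± 0.19). On unscaled totals 0 of these 6 were higher. Of 3 myeloid genes, Mir142 again among them, 0 were higher and 1 was lower. Of 17 neuronal genes 3 were higher and 6 lower, with a median of -0.32. Mir128-1 was among the higher, by 2.65 ± 0.24 at 137 ± 97.8 CPM. The share of any of these cells in the muscle values was not tested.

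**Figure D3:**
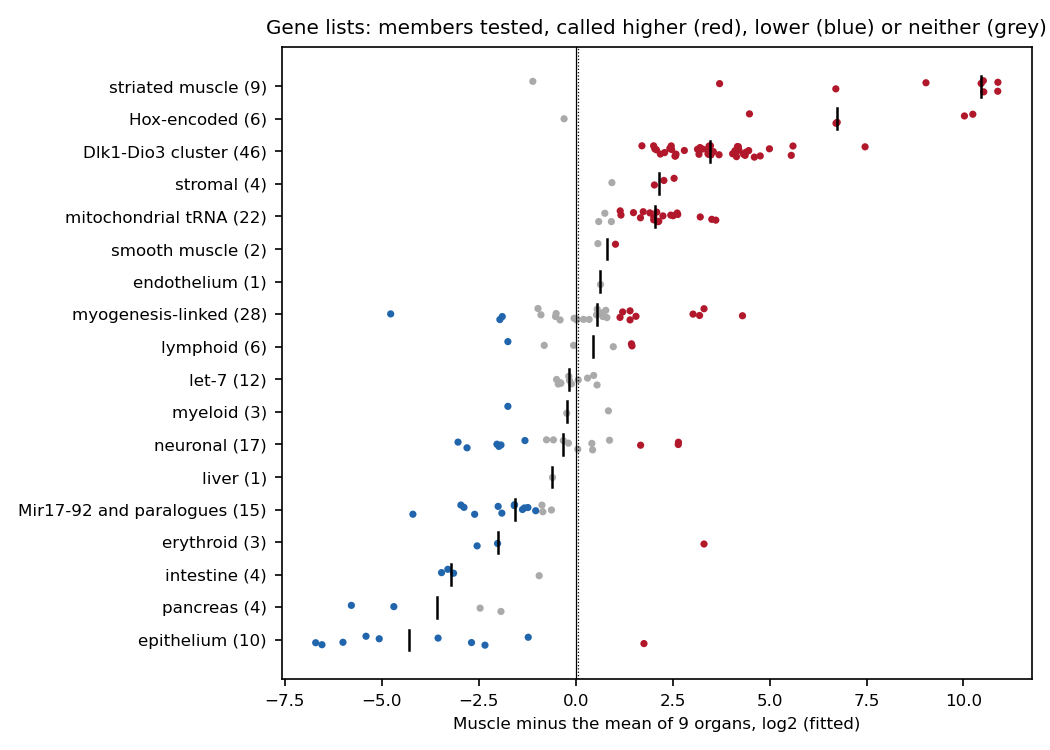
Log2 difference of muscle minus the mean of 9 organs for every tested member of 18 gene lists; red points were higher, blue points lower, grey points neither, bars are list medians, and the dotted line is the median of all genes tested (0.05). Striated muscle (median 10.46), Hox-encoded (6.73) and Dlk1-Dio3 genes (3.46) lie to the right and epithelial genes (-4.31) to the left.

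By RNA class, miRNA genes took 83.7 ± 8.51% of counts in muscle (69.3 to 97.3%, n = 14) and 75.0 ± 17.1% in the other organs (n = 116), a difference of 8.73 percentage points that did not pass the test over libraries (two-sided permutation test, adjusted over 7 classes, p = 0.0749). Within animals, with each muscle library set against the mean of the same animal's other organs, the difference was 8.72 points, higher in 11 of 14 animals (exact sign-flip test, adjusted p = 0.00256). Kidney and brain had mean miRNA shares above that of muscle, at 87.2 and 84.9%, while intestine had 55.1%. tRNA genes took 7.24 ± 4.42% against 12.1 ± 16.2% (adjusted p = 0.314, permutation test). Intestine had 41.6 ± 33.0%, while brain, heart, liver and pancreas had means of 4.15 to 5.40%, below that of muscle. Within animals tRNA genes differed by -4.77 points (adjusted p = 0.00128, exact sign-flip test). snoRNA genes, which guide the modification of ribosomal RNA, took 5.57 ± 7.21% against 8.46 ± 9.73% (adjusted p = 0.328), and -3.08 points within animals (adjusted p = 0.0199, exact sign-flip test). The misc_RNA class was lower in muscle by both tests, at 0.0625 ± 0.0288% against 0.181 ± 0.201% (adjusted p = 0.00490, permutation test), in 14 of 14 animals.

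Mitochondrial tRNA genes took 3.20 ± 1.94% of muscle counts against 3.75 ± 5.07% elsewhere (permutation test, adjusted p = 0.787). After TMM scaling, 19 of 22 of these genes were higher and 0 lower, with a median of 2.05. Of all genes tested 23.5% were higher and 11.1% lower, with a median of 0.05. On unscaled totals 13 of the mitochondrial tRNA genes were higher. Heart held more of them than muscle: mt-Ts2 had 6931 ± 4255 CPM in muscle and 39628 ± 26669.9 in heart, mt-Tv 6266 ± 2625 and 27550.1 ± 14164, and mt-Th 3275 ± 2309 and 14288 ± 12715. mt-Th differed from the 9 organs by 3.21 ± 0.30 (adjusted p = 1.98e-18) and from heart by -1.48 (adjusted p = 0.00165).

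**Figure D4:**
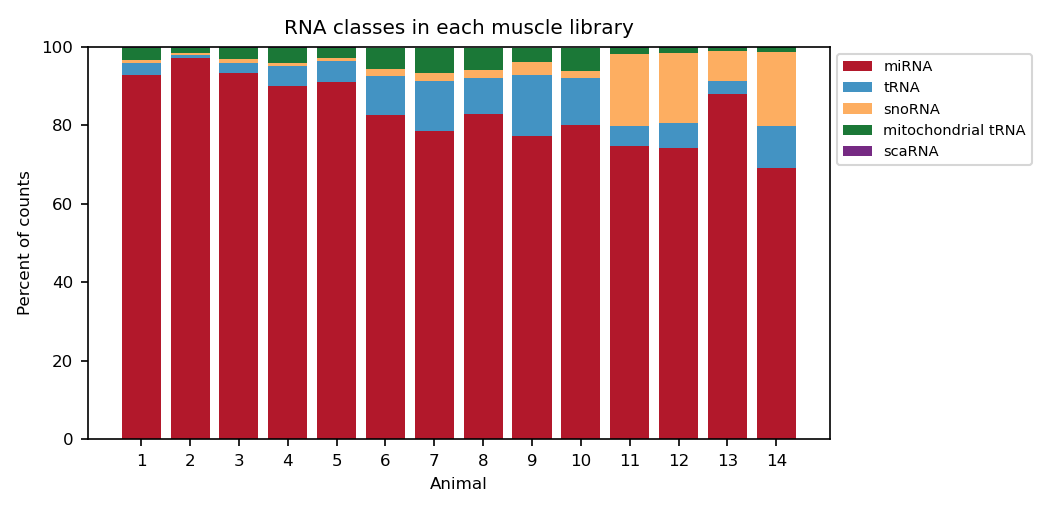
Stacked bars of the 14 muscle libraries, 1 bar an animal, with the percent of a library's counts on each RNA class. snoRNA genes take 0.385 to 0.951% in animals 1 to 5, 1.81 to 3.53% in animals 6 to 10 and 7.63 to 19.0% in animals 11 to 14.

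Pool N469 allows the comparison without pool differences: 10 muscle libraries against 38 of brain, heart, intestine and bone marrow of the same 10 animals. These libraries are part of the comparison above, so the values stand side by side and are not an independent test. Of 990 genes tested, 179 were higher (18.1%) and 213 lower (21.5%), with a median of all genes of -0.40. On unscaled totals 94 were higher and 434 lower. Of 9 striated muscle genes tested 8 were higher, with a median of 7.95: Mir1a-1 had 8.45 ± 0.74, Mir133a-2 7.95 ± 0.45, Mir206 8.08 ± 0.71 and Mir133b 6.92 ± 0.47 on the log2 scale. Mir1a-1 had 4.16 without the muscle of animals 1 to 5 and 9.42 without that of animals 6 to 10. Both fits kept all libraries of the 4 organs. In each organ, mean Mir1a-1 was lower at index numbers 25 to 48 than at 1 to 24. Heart had 2199 against 30434 CPM, brain 8.05 against 60.9, intestine 12.0 against 57.5 and bone marrow 7.25 against 218. Heart is 1 of 4 organs here and 1 of 9 above. Mir208b and Mir499 were higher by 5.52 ± 0.53 and 3.08 ± 0.38.

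In pool N469, 16 genes were above each of the 4 organs (1.62%). Mir196a-1, Mir196a-2, Mir1963, Mir615 and Mir206 had the greatest margins, at 5.16, 5.12, 5.11, 3.92 and 3.88 over the next organ; kidney, which held the next level of the Hox-encoded genes, is not in this pool. Mir10b was 3.44 above intestine (adjusted p = 0.00110 for muscle above each organ), and Mir483, Mir193b, Mir3061 and Mir1191b were also above each. Mir133b, 2.20 over heart, was not (adjusted p = 0.0740), nor was n-TStga1 (1.17 over intestine, adjusted p = 0.905). Of 46 Dlk1-Dio3 genes 43 were higher, with a median of 2.40. Of 22 mitochondrial tRNA genes 10 were higher and 0 lower, 2 were higher on unscaled totals, and without the muscle of animals 6 to 10 there were 5 higher and 2 lower. Epithelial genes were lower in 8 of 10, and Mir17-92 genes in 10 of 15. Neuronal genes were lower in 13 of 17 and higher in 2, with a median of -2.05. Among all genes tested in this pool 18.1% were higher and 21.5% lower. Mir31 was lower by 4.72 ± 0.46 (adjusted p = 1.25e-12). The stromal Mir214 and the endothelial Mir126a, not called against 9 organs, were higher here by 1.75 and 1.22, and Mir30a by 1.72. On unscaled totals all 3 calls ended, at 0.95, 0.49 and 0.87. That of Mir126a also ended with miRNA genes alone (0.95) and without the muscle of animals 6 to 10 (0.59), and that of Mir30a without the muscle of animals 1 to 5 (0.87). The liver marker Mir122, at 0 to 2.71 CPM in the muscle libraries of this pool, was higher here by 1.81 ± 0.43 (adjusted p = 0.000487), a call that ended on unscaled totals (0.90), without the muscle of animals 1 to 5 (0.36) and in index numbers 25 to 48 alone (0.78).

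Within muscle, several genes followed the 3 sets of animals. Mir1a-1 had 18750 to 97548 CPM in animals 1 to 5, 2800.5 to 5162 in animals 6 to 10 and 45979 to 88380 in animals 11 to 14. The ranges do not overlap between animals 6 to 10 and the rest. Heart libraries of the same animals had 22545 to 41296, 1493 to 2579 and 28681 to 38971 CPM, with the same set low. Mir133a-2, transcribed with Mir1a-1, had 15752 to 83261, 58314 to 78229 and 12528 to 85518 CPM in muscle, ranges that overlap. The ratio of Mir133a-2 to Mir1a-1 was 0.762 to 0.970 in animals 1 to 5, 14.7 to 23.5 in animals 6 to 10 and 0.272 to 1.19 in animals 11 to 14.

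Mir22 showed the opposite step: 4354 to 27180 CPM in animals 1 to 5, 68772 to 103888 in animals 6 to 10 and 8882 to 24652 in animals 11 to 14. In heart it had 15652 to 26066, 53245 to 89342 and 15380.1 to 23215 CPM. Mir411 had 37.0 to 116, 416 to 1335 and 40.4 to 64.1 CPM in muscle. In muscle and heart, animals 6 to 10 differ from animals 1 to 5 in the labels by animal and by adapter index number, which cannot be told apart. In bone marrow, index numbers 44 to 48 went to animals 5 to 9. There Mir22 had 15227 CPM in animal 5, 8607 to 15373 in animals 6 to 9 and 2518 to 4208 in animals 1 to 4. Mir1a-1 had 30.5, 0.717 to 2.34 and 45.9 to 549.9 CPM in the same order. In lung, from pool N467, index numbers 44 to 48 also went to animals 5 to 9. Mir1a-1 had 41.9 to 199 CPM in those and 58.7 to 355 in animals 1 to 4. Mir22 had 3165 to 7889 and 3228 to 3701 CPM, and Mir411 7.04 to 17.0 and 12.9 to 18.2. These lung ranges overlap. The cause of the steps was not tested.

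**Figure D5:**
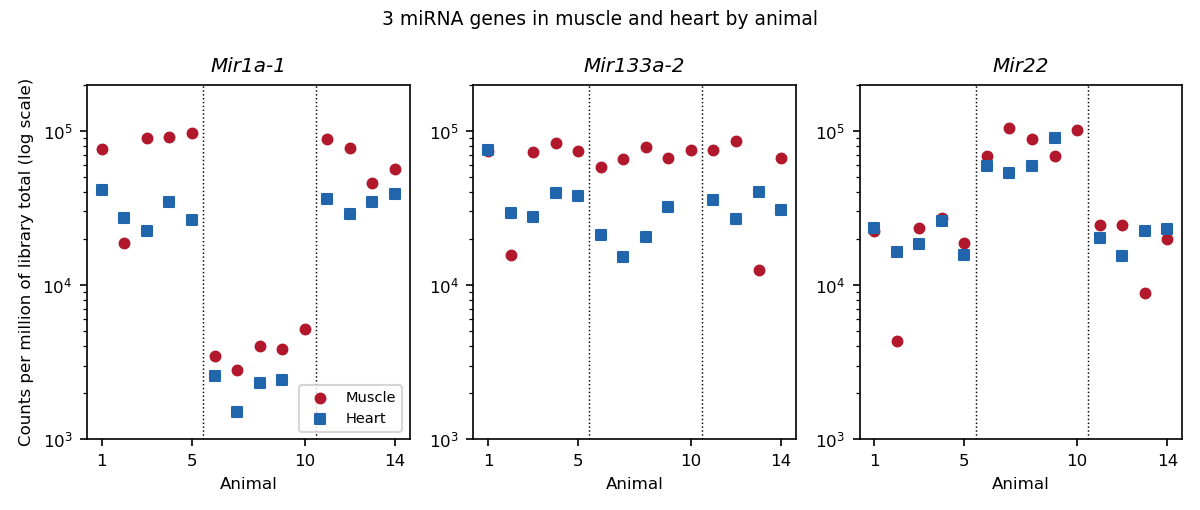
Raw CPM on a log axis of Mir1a-1, Mir133a-2 and Mir22 in muscle and heart by animal number; dotted lines separate animals 1 to 5, 6 to 10 and 11 to 14. Mir1a-1 in muscle drops to 2800.5 to 5162 CPM and Mir22 rises to 68772 to 103888 CPM in animals 6 to 10, and heart shows the same steps.

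A comparison of the muscle of animals 6 to 10 with that of animals 1 to 5, added after these values were seen, called 218 of 648 genes (33.6%), 134 of them higher and 84 lower. Mir1a-1 differed by -5.03 ± 0.25 in muscle and -4.38 in heart, Mir206 by -2.17 and -4.61, Mir22 by 1.41 and 1.10, and Mir411 by 2.28 and 2.96. Mir133a-2 did not reach the size required in muscle (-0.66, adjusted p = 0.00693) and was lower in heart by 1.49 (adjusted p = 0.00480). Mir10b was lower by 2.69 and Mir486 by 1.33, calls that ended on unscaled totals, at -0.91 and -0.04. Higher calls fell on tRNA genes (80 of 214 tested, 5 lower) and mitochondrial tRNA genes (14 of 22, 0 lower), and lower calls on miRNA genes (64 of 293, 22 higher).

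Muscle of animals 11 to 14 was compared with that of animals 1 to 10. Sex, animal set and pool are the same split here and cannot be told apart. Of 732 genes 128 were higher (17.5%) and 88 lower (12.0%); without Muscle 12 and without Muscle 14 the lower count was 58 and 57. snoRNA genes made up 56 of the higher genes, of 108 tested, with 16 lower. Snord49a had 14.6 to 174 CPM in animals 1 to 10 and 5623 to 49671 in animals 11 to 14, a log2 difference of 9.05 ± 0.35, with no overlap. Snord55 had 408 ± 151 CPM (n = 10) and 24280 ± 9539 (n = 4), a difference of 6.49 ± 0.28, and Snord83b 97.5 ± 26.2 and 6840.1 ± 4380, a difference of 6.32 ± 0.52. Gm24463 and Gm23344 were higher by 8.49 and 6.66.

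Of 22 mitochondrial tRNA genes 11 were lower in animals 11 to 14 and 0 higher, with mt-Tt lower by 2.67 ± 0.56 and mt-Tn by 2.48 ± 0.82. The call of mt-Tn ended without the muscle of animals 6 to 10, at -0.61. Of 322 miRNA genes 19 were higher and 26 lower, where 17.5% of all 732 genes were higher and 12.0% lower. Mir6236 was lower by 3.67 ± 1.01, Mir193b by 1.21, Mir126a by 1.23 and Mir451a by 1.41. The call of Mir193b ended without the muscle of animals 1 to 5 (-0.75), that of Mir126a without the muscle of animals 6 to 10 (-0.61), and both with no filter on low counts (-1.14 and -1.15). The small nuclear RNA genes Gm24265 and Gm24407 were lower by 3.06 each, calls that ended without the muscle of animals 6 to 10, at -0.22 and -0.21.

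Whether the muscle difference itself depended on the animal set was tested as an interaction in muscle, brain, heart, intestine and bone marrow. It was called in 146 of 1222 genes (11.9%), 143 of them higher in animals 11 to 14 and 3 lower, where the median of all genes was 0.79. Of these, 69 higher calls were snoRNA genes of 269 tested, 38 tRNA genes of 292 and 14 miRNA genes of 546.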

How the data were processed

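Small RNA was sequenced from organs of 14 mice. The labels' protocols name RNAlater, RNA isolation with miRNeasy and libraries from the TruSeq Small RNA kit, size-selected on a gel and read as single reads on a NextSeq 500. The kit ligates adapters to RNA ends, so capture can differ between RNAs. The authors deposited raw counts per gene (6114 genes, 134 columns), which are relative within each library. The submitters' processing notes list STAR 2.5.1, featureCounts and the build mm10/GRCm38, and how strand and multi-mapping reads were set is not given in the sources used here. Rows without a gene name (377) are tRNA genes by class and were kept. Pancreas 11 and 3 testis columns were left out. Positions are from GENCODE M21 (5682 names matched), and 68 of 77 named miRNA genes had a mature sequence in RefSeq.

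Counts of 130 libraries were fitted in edgeR 4.0.16 (limma 3.58.1, R 4.3.3) with its quasi-likelihood test, after filterByExpr by tissue (minimum count 10) and TMM scaling, in a model of tissue and pool, as muscle minus the mean of the 9 organ coefficients. A call needed an adjusted p (Benjamini-Hochberg) below 0.05 and a log2 change of at least 1 in either direction. "Above each organ" took the largest one-sided p of a gene, adjusted over all genes, with the same size for the smallest difference. Adjusted p-values and SEs in the text are from these fits unless another test is named. They measure the spread between these animals. Class shares were tested by permutation (100000 resamples, SciPy 1.17.1; smallest possible p 1e-05) and within animals by exact sign flips (smallest p 0.000122). Floors are 3 counts and cover counting error only.

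Named genes were the 10 largest changes each way (at least 10 CPM in muscle, or over the organs for lower genes), genes above each organ, the 10 most abundant in muscle, all striated muscle genes, up to 4 of the most abundant members of each other list, and 5 genes each way within muscle. The members and the 18 lists were chosen with earlier results of these data known. Replicate numbers are animals and so pair the organs. Deviations of the same animal correlated with muscle at a mean r of -0.101 (pancreas) to 0.264 (heart). Other animals of the same animal set gave 0.0048 for pancreas and -0.0077 for heart. These deviations were taken from tissue and pool alone, so the r values do not separate animal from adapter index range. Alternatives were DESeq2 1.42.0 size factors and its Wald test, unscaled totals, no filter, no pool term, an animal block, miRNA genes only, pool N541 alone, no heart, and leaving out each muscle library. Leaving out the muscle of each set of animals, or libraries under 100000 counts, and splitting by adapter index, were added after seeing the data. Simulated counts of 1028 genes were put through the comparison with the 9 organs. An adjusted p below 0.05 in the true direction, at any size, was reached by 36.8% of genes changed by 1 on the log2 scale. It was reached by 85.7% of those changed by 2. Of unchanged genes, 1.56% passed an adjusted p of 0.05 together with a log2 change of at least 1.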

Additional observations from a re-analysis of the deposited data

Results flagged for a closer look

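Within muscle of animals 1 to 10, 1 library stood apart from the rest for each of 2 snoRNA genes that differed between animal sets. Snord55 had 56.2 CPM in Muscle 2, with 328 CPM in the next library. Snord83b had 162 CPM in Muscle 1, with 113 CPM in the next. Among animals 11 to 14, Snord55 had 10163 CPM in Muscle 13, with 27837 CPM in the next. Chance alone marks about 1 in 20 such groups, and groups of more than 10 libraries were not examined.

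The muscle difference depended on the animal set by the interaction test (edgeR) for 8 genes taken by size. The log2 interaction was 5.90 for Gm23734, 5.75 for Scarna2, 5.68 for Snord83b, 5.53 for Gm25117 and 5.36 for tRNA_row_112, and it was -4.19 for Gm22480, -3.96 for Mir466d and -1.96 for Mir341. In muscle, Scarna2 had 0.374 to 4.94 CPM in animals 1 to 10 and 1.62 to 39.9 in animals 11 to 14, and Mir341 had 3.74 to 33.4 and 2.03 to 9.72. Gm23734, tRNA_row_112, Gm22480 and Mir466d had means below 1 CPM in muscle in both sets, so their fitted values depend on the prior count. The call of tRNA_row_112 ended with DESeq2 size factors, on unscaled totals and with no filter on low counts. Those of Gm22480, Mir466d and Mir341 ended with no filter on low counts. Sex, animal set and pool cannot be told apart in any of these 8 genes.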

How the results depend on the processing

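Counts of called genes moved most on unscaled totals: 150 higher, 327 lower and 1 above each organ against 9 organs, 94, 434 and 9 in pool N469, 60 higher and 141 lower between animal sets, 69 in the interaction, and 238 higher and 17 lower between animals 6 to 10 and 1 to 5. With miRNA genes only there were 150 higher and 13 above each, and 102 higher and 130 lower in N469. Lower calls against 9 organs were 269 by the DESeq2 Wald test, 60 in pool N541 alone, 219 without heart and 181 without the muscle of animals 1 to 5. Genes above each organ were 1 in pool N541 alone and 3 without animals 1 to 5 or without 11 to 14. The interaction count was 93 with DESeq2 size factors and 82 with no filter, which tests more genes. Leaving out single muscle libraries gave 220 to 241 higher, 126 to 137 lower and 5 to 6 above each organ, 171 to 190, 189 to 222 and 15 to 16 in N469, 102 to 142 and 57 to 96 between animal sets, 100 to 179 in the interaction, and 125 to 145 and 55 to 90 between animals 6 to 10 and 1 to 5 (55 without Muscle 2). With the replicate block of animals, paired fits gave 241, 120 and 6 against 9 organs, 188, 212 and 20 in N469 and 161 in the interaction, and class shares differed by 8.72 (miRNA), -4.77 (tRNA), -3.08 (snoRNA), -0.264 (scaRNA) and -0.0367 (snRNA) percentage points, each now past the test. The miRNA share also passed in N469 (15.0), and scaRNA without tRNA genes (-0.288). No paired fit exists between sets of different animals. Of 821 alternatives for 55 named genes against 9 organs, 780 kept the side of the threshold, 24 lost it, 11 gained it and 6 changed sign, all in genes not called: Mir30a to -0.30 (unscaled), -0.0391 (N541 alone) and -0.16 (without animals 1 to 5), Mir10a to 0.23 (N541 alone) and 0.0085 (without animals 6 to 10) and Mir126a to -0.14 (unscaled). Mir133a-2 between animals 6 to 10 and 1 to 5 changed to 0.11 (unscaled). The cause of these shifts was not tested. Correlations across muscle libraries were not run, because the libraries fall into sets of 5, 5 and 4. Depth limits pancreas most.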
